A study of Rattus norvegicus with 120 samples.

Results

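Hearts of obese ZSF1 rats on vehicle were sampled in both studies of the series, and the 10 libraries of study B are set here against the 10 of study A, with no drug on either side. The 20 libraries were chosen by their labels (tissue heart, genotype ZSF1 Obese, treatment Vehicle, and the study in the title) out of 120 libraries in the series, 60 of them from heart. ZSF1 is a hybrid rat strain whose obese animals carry defective alleles of the leptin receptor and develop obesity, diabetes, hypertension and heart failure with preserved ejection fraction. The rats were 30 weeks old, drugs were mixed into the chow, and 10 rats were sequenced per condition. What set study B apart from study A (date, time of day at sampling, operator, litters) is not given in the sources used here, so every difference below is one between the studies as they were run. P-values of a study difference weigh it against the spread of these libraries. They do not say how far another run of either study would differ.

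Several sets of genes respond to when and how a heart is collected. The circadian clock is a loop in which BMAL1 and CLOCK switch on the Per and Cry genes and the nuclear receptor genes Nr1d1 and Nr1d2 (REV-ERB). Their proteins shut off BMAL1 and CLOCK or repress the Bmal1 gene itself, so that Bmal1 transcripts peak at a time of day opposite to those of Dbp, Per3 and Nr1d1 in most tissues, the heart included. Immediate-early genes such as Fos, Jun and Egr1 are transcribed without new protein, within minutes of growth factors, stretch, ischaemia or handling, and are soon switched off again. Atrial muscle has genes of its own (Myl7, Myl4, Sln, Nppa, Bmp10), whose level in a piece of heart moves with the share of atrium in it.

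The promoters of 6 genes that differed between the studies are shown because each holds a motif known from one of these programmes. They are the 250 bases before the RefSeq start of the gene on build GRCr8, 5′ to 3′ in the direction of the gene, with motifs in capitals. Bmal1 (chr1:176766078-176766327, plus strand) holds the core of the element of ROR and REV-ERB, and Per2 (chr9:99496994-99497243, minus strand) a D-box, the element of DBP and NFIL3. Ciart, a repressor of BMAL1 and CLOCK (chr2:186112247-186112496, minus strand), holds 3 E-boxes, the element of BMAL1 and CLOCK. Ier2 (chr19:40399123-40399372, plus strand) holds a cyclic AMP element, Zfp36 (chr1:92799109-92799358, minus strand) a CArG box, the element of serum response factor, and Dusp5 (chr1:262543524-262543773, plus strand) 2 adjoining CArG boxes.
Bmal1 promoter: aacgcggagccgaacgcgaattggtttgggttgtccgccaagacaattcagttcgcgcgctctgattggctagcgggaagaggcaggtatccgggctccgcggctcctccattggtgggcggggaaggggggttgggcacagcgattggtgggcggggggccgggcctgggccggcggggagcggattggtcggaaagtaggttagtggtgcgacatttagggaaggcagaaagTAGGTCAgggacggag
Per2 promoter: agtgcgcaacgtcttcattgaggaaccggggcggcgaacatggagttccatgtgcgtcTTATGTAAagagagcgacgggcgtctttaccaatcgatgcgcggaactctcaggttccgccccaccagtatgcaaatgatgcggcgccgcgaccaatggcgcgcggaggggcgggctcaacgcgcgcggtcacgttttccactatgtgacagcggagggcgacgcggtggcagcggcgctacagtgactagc
Ciart promoter: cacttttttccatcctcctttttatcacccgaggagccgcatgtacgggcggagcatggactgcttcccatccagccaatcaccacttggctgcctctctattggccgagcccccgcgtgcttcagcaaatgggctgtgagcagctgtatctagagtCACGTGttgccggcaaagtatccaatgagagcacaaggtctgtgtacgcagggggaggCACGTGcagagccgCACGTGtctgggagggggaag
Ier2 promoter: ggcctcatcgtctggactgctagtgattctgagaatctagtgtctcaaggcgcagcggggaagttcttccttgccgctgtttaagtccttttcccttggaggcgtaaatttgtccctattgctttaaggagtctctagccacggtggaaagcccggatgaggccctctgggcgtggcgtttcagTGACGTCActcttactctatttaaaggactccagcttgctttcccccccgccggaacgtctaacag
Zfp36 promoter: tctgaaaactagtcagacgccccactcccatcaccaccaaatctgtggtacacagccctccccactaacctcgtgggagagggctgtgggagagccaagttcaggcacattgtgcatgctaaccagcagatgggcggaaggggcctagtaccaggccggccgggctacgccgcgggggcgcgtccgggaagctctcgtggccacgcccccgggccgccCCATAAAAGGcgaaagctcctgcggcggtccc
Dusp5 promoter: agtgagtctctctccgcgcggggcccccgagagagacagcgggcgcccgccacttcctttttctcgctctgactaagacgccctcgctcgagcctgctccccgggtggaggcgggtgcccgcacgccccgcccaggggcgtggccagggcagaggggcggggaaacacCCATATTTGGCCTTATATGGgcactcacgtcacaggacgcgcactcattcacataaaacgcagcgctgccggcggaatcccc

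Motifs were searched on both strands of these windows as the letters CACGTG (E-box), TTATGTAA (D-box), TAGGTCA (ROR core) and TGACGTCA (cyclic AMP element), and the CArG box by its name. Promoters were found for 30 of 37 listed clock genes and 29 of 40 immediate-early genes. E-boxes stood in 7 of the 30 clock promoters (23.3%), in 6 of the 29 immediate-early promoters (20.7%) and in 5.59% of all 33469 promoters. D-boxes stood in 1 and ROR cores in 2 of the 30 clock promoters, against 0.828% and 2.26% of all promoters. CArG boxes and cyclic AMP elements each stood in 5 of the 29 immediate-early promoters (17.2%), against 1.5% and 1.59% of all promoters. Many genes that differed between the studies held none of these motifs, among them Per1, Per3, Dbp, Nr1d1, Nfil3, Junb and Nfkbia. Genes that did not pass the test below held some, such as Bhlhe40 (E-box) and Egr1 (CArG box). A match describes these letters and shows no binding.

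Total counts ran over 7.33 to 21.8 M (M being 1000000 counts) in study B and 9.93 to 18.3 M in study A. Over the libraries of both plates they did not differ beyond the spread of the libraries (permutation test, 2-sided, p = 0.246). The plates went in opposite directions. Mean totals on plate 1 were 10.16 M in study B and 14.84 M in study A. On plate 2 they were 13.96 M in study B and 12.94 M in study A. The difference in total counts within a plate was not tested. Ventricular Myl2 was at 5069 CPM (counts per 1000000) or more in each of the 20 libraries, while Umod of kidney and Alb of liver stayed under 1 CPM. Markers of fat were seen in some study B libraries. Adipoq reached 12.5 and 12.4 CPM in study B replicates 6 and 7, against at most 0.247 CPM in study A. Ucp1 of brown fat reached 5.22 CPM in study B replicate 7, against at most 0.121 CPM in study A. Other fat markers went the other way. Of 7 listed adipocyte genes 2 could be tested between the studies, and both had a negative log2 fold change (study B minus study A). Cfd was lower in study B (-0.80, adjusted p = 0.0435, edgeR). The part of fat in the results below was not tested. Replicates 1 to 5 of each study were on plate 1 and 6 to 10 on plate 2, and the first axis of variance (46.0%) separated the plates more than the studies, so the plate was kept in the model. Of 12433 genes tested with edgeR, 1459 (11.7%) passed an adjusted p of 0.05, 428 of them (3.44%) higher and 1031 (8.29%) lower in study B. The count of higher genes moved with the processing, to 876 with DESeq2, 644 with its size factors, 1133 without study A replicate 6 and 213 without study B replicate 5. On plate 1 alone 916 genes passed. On plate 2 alone edgeR called 0, with 1479 at an unadjusted p under 0.05, so folds on each plate are given for the leading genes.

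Clock genes differed between the studies in both directions. Bmal1, Cry1 and Nfil3 were higher in study B, while Per1, Per2, Per3, Ciart, both REV-ERB genes and Dbp were lower. Of 37 listed genes 33 were tested (Bmal2, Rora, Rorb and Hif3a were too low), 4 were called higher and 9 lower, beside the 3.44% and 8.29% of all genes. Their median log2 fold change was 0.02, against -0.02 over all genes. In whole pieces of heart, fewer cells of a type and less RNA per cell cannot be told apart.

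Bmal1 (deposited as Arntl, ENSRNOG00000014448), the partner of CLOCK in the activating complex, had 21.7, 33.1 and 38.7 CPM in study B, against 8.23, 16.8 and 26.96 CPM in study A (lowest, median and highest library). Each study B library stood above the study A median, and 1 study A library reached into the study B range. The log2 fold change was 0.92 ± 0.13, adjusted p = 6.50e-04 (edgeR), with 0.80 on plate 1 and 1.05 on plate 2. The other activators did not pass the test. Clock had medians of 17.9 CPM in study B and 19.7 CPM in study A (0.03 ± 0.12, adjusted p = 0.894), and Npas2, which can replace CLOCK, 7.85 CPM in study B and 7.92 CPM in study A (0.22 ± 0.14, adjusted p = 0.311).

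Of the repressors, Per1 had 13.02, 19.1 and 24.9 CPM in study B, against 24.3, 33.1 and 60.3 CPM in study A. The ranges met over less than 1 CPM, and the log2 fold change was -0.92 ± 0.13, adjusted p = 6.61e-04 (edgeR), -0.85 on plate 1 and -0.98 on plate 2. Per3 had 6.08, 8.62 and 17.7 CPM in study B, against 9.53, 20.5 and 41.9 CPM in study A. All 10 study B libraries lay under the study A median, with 4 study A libraries inside the study B range (log2 fold change -1.32 ± 0.19, adjusted p = 6.90e-04, -1.34 and -1.29 on plates 1 and 2). Per2, whose D-box is printed above, had 7.83, 12.97 and 21.2 CPM in study B, against 11.1, 22.8 and 39.3 CPM in study A (log2 fold change -0.69 ± 0.16, adjusted p = 0.0096). Again no study B library exceeded the study A median, though 8 of them lay inside the study A range.

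Ciart, whose E-boxes are printed above, was a low transcript with 0.154, 0.495 and 0.925 CPM in study B, against 0.795, 1.25 and 5.27 CPM in study A (log2 fold change -1.67 ± 0.34, adjusted p = 0.00373). Its fold rests on few counts, and 2 study A libraries lay inside the study B range. Cry1, the late repressor of the loop, went the other way with 5.23, 6.98 and 8.83 CPM in study B, against 3.38, 5.01 and 7.23 CPM in study A (log2 fold change 0.41 ± 0.11, adjusted p = 0.0142), and each study B library stood above the study A median. Its relative Cry2 did not pass the test (-0.10 ± 0.06, adjusted p = 0.328), nor did Bhlhe40, Bhlhe41, Csnk1d, Csnk1e and Fbxl21.

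In the second loop, Nr1d1, a repressor of Bmal1, had 12.6, 18.9 and 35.6 CPM in study B, against 16.8, 33.04 and 60.1 CPM in study A (log2 fold change -0.65 ± 0.18, adjusted p = 0.023). The studies overlapped widely, with 2 study B libraries above the study A median. Nr1d2, its near relative, had medians of 27.7 CPM in study B and 34.7 CPM in study A (-0.40 ± 0.13, adjusted p = 0.0474), a call kept in 4 of the 20 fits that each left 1 library out.

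Among the output genes, Dbp (ENSRNOG00000021027), a transcription factor of D-boxes, had 3.900, 6.900 and 18.9 CPM in study B, against 9.58, 19.1 and 58.2 CPM in study A. All 10 study B libraries were under the study A median. The log2 fold change was -1.50 ± 0.24, adjusted p = 8.84e-04 (edgeR), -1.55 on plate 1 and -1.46 on plate 2. Nfil3, which competes with DBP for the same sites, had 13.9, 18.1 and 20.9 CPM in study B, against 10.5, 13.2 and 16.8 CPM in study A (log2 fold change 0.41 ± 0.08, adjusted p = 0.0039), each study B library above the study A median. Klf15, a rhythmic factor of cardiac amino acid and lipid metabolism, had medians of 18.5 CPM in study B and 24.3 CPM in study A (-0.39 ± 0.09, adjusted p = 0.00947).

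The other outputs moved less. Ppp1r3c, a glycogen-targeting subunit of protein phosphatase 1, had medians of 176 CPM in study B and 151 CPM in study A (0.29 ± 0.08, adjusted p = 0.0235) and lost its call without study B replicate 8. Tspan4 was lower (-0.39 ± 0.12, adjusted p = 0.0449), with its call kept in 6 of those 20 fits. The relatives of Dbp did not pass the test, Tef at -0.12 ± 0.07, adjusted p = 0.27 and Hlf at 0.20 ± 0.27, adjusted p = 0.655.

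**Figure D1:**
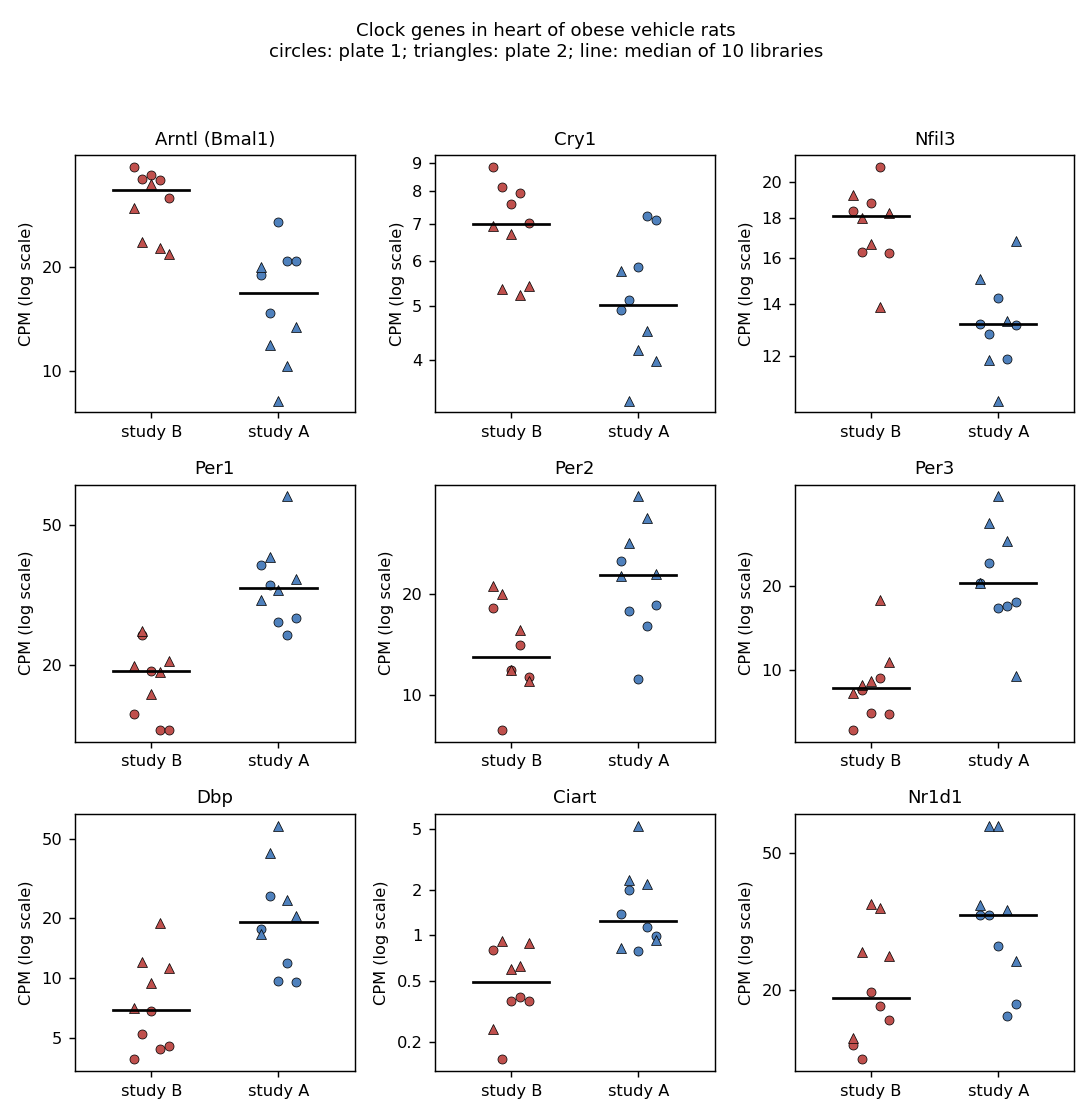
Level of 9 clock genes in each heart library of obese vehicle rats (y axis, CPM on a log scale; x axis, study B left and study A right; circles plate 1, triangles plate 2, lines the median of 10 libraries). Bmal1, Cry1 and Nfil3 have the higher median in study B, and Per1, Per2, Per3, Dbp, Ciart and Nr1d1 the lower one.

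Bmal1 and Dbp were also related among the 10 libraries of each study. Pearson's r of their log2 values was -0.83 in study B and -0.91 in study A (permutation p = 0.00412 and 2.20e-04, adjusted over 12 relations 0.0124 and 0.0015). Spearman's rho was -0.79 in study B and -0.90 in study A (permutation p = 0.00925 and 7.80e-04, adjusted 0.0355 and 0.00468). Without the 2 libraries farthest in Bmal1, r was -0.69 in study B and -0.82 in study A. Each plate holds 5 libraries of a study, too few for an r of its own, and for deviations from the plate means r was -0.53 in study B and -0.84 in study A.

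Dbp and Per3 gave an r of 0.81 in study B and 0.72 in study A (permutation p = 0.00303 and 0.0206, adjusted 0.0121 and 0.0309), with a rho of 0.66 and 0.77 (permutation p = 0.0441 and 0.0127, adjusted 0.0589 and 0.0355). Without the 2 libraries farthest in Dbp r was 0.67 in study B and 0.31 in study A, so Pearson's r in study A rests on those libraries. For deviations from the plate means r was 0.71 in study B and 0.72 in study A. Bmal1 and Per3 gave -0.70 in study B and -0.61 in study A (Pearson's r, permutation p adjusted 0.0296 and 0.0774). Fos and Junb gave 0.57 and 0.73 (adjusted 0.095 and 0.0301), and Fos and Ier2 0.74 and 0.54 (adjusted 0.0296 and 0.109). For deviations from the plate means these pairs gave -0.46 and -0.58, 0.03 and 0.56, and 0.41 and 0.05.

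Immediate-early genes were lower in study B in most members. Of 40 listed genes 32 were tested, 19 were called lower (beside 8.29% of all genes) and 1, Dusp5, was called higher (beside 3.44%). The median log2 fold change was -0.43, against -0.02 over all genes. Fosb, Fosl1, Egr2, Egr3, Egr4, Nr4a3 and Dusp2 were too low to test, and 1 listed gene, Dusp1, was not found by symbol and not tested. The lower genes were 5 of 7 AP-1 genes, 7 of 12 zinc finger, nuclear receptor and related genes and 7 of 13 feedback genes.

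AP-1 genes encode the partners of one dimeric transcription factor. Fos (ENSRNOG00000008015) had 0.154, 0.739 and 1.43 CPM in study B, against 0.247, 1.81 and 11.1 CPM in study A. No study B library exceeded the study A median, and 4 study A libraries lay inside the study B range. The log2 fold change was -1.94 ± 0.45, adjusted p = 0.00853 (edgeR), -1.06 on plate 1 and -2.44 on plate 2. Like that of Ciart, this fold rests on few counts. Study A replicates 6, 8 and 9 had 7.55, 11.1 and 7.87 CPM of Fos and its other libraries at most 2.06 CPM, and 9 study B libraries lay inside the study A range. Junb had 1.02, 2.36 and 5.72 CPM in study B, against 1.54, 5.37 and 12.02 CPM in study A (log2 fold change -1.17 ± 0.21, adjusted p = 0.00143), with 1 study B library above the study A median. Jun had 23.3, 31.4 and 45.1 CPM in study B, against 31.9, 49.00 and 66.3 CPM in study A (log2 fold change -0.52 ± 0.09, adjusted p = 0.00117).

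Both Jun genes overlapped between the studies, Jun with 4 and Junb with 5 study A libraries inside the study B range. Maff, a small MAF partner, and Jund were lower by 0.53 and 0.42 on the log2 scale (adjusted p = 0.0163 and 0.0379), Jund with its call kept in 8 of 20 fits that each left 1 library out. Atf3 and Fosl2 did not pass the test (-0.28 ± 0.20, adjusted p = 0.374, and -0.04 ± 0.12, adjusted p = 0.864).

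Among the zinc finger and related genes, Klf2, a factor that blood flow induces in endothelium, had 8.599, 11.3 and 18.6 CPM in study B, against 12.8, 21.5 and 52.6 CPM in study A (log2 fold change -0.94 ± 0.15, adjusted p = 8.84e-04, -0.88 and -0.99 on plates 1 and 2). Klf4, its relative, had medians of 25.1 CPM in study B and 34.03 CPM in study A (-0.44 ± 0.08, adjusted p = 0.00119). All but 1 of these 20 study B values (10 libraries for each gene) were under the study A median. Arc, best known from synapses, had 0.831, 1.902 and 2.78 CPM in study B, against 2.19, 4.08 and 9.26 CPM in study A (log2 fold change -1.37 ± 0.18, adjusted p = 5.54e-04, edgeR), with 2 study A libraries inside the study B range. Ier2, whose cyclic AMP element is printed above, had 3.51, 5.27 and 10.9 CPM in study B, against 5.004, 10.6 and 17.8 CPM in study A (log2 fold change -0.78 ± 0.13, adjusted p = 0.00101, -0.77 and -0.79 on plates 1 and 2). Egr1, a classic member of the set, did not pass, with medians of 3.99 CPM in study B and 5.13 CPM in study A (-0.30 ± 0.15, adjusted p = 0.183). Nr4a1, an orphan nuclear receptor, was lower (-0.51 ± 0.16, adjusted p = 0.0465) with its call kept in 6 of 20 fits that each left 1 library out.

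Feedback genes encode proteins that end the response. Zfp36, which destabilizes cytokine transcripts, had 10.8, 14.7 and 21.9 CPM in study B, against 18.4, 26.7 and 56.9 CPM in study A (log2 fold change -0.98 ± 0.14, adjusted p = 6.61e-04, -0.87 and -1.07 on plates 1 and 2). Each study B library lay under the study A median. Nfkbia, the inhibitor of NF-κB, had 22.2, 31.3 and 40.8 CPM in study B, against 30.8, 48.1 and 129.6 CPM in study A (log2 fold change -1.03 ± 0.20, adjusted p = 0.00255). Gadd45g, Sik1 and Btg2 were lower by 0.94, 0.87 and 0.41 on the log2 scale (adjusted p = 0.00166, 0.00429 and 0.00301), in 10 of 10 study B libraries against the study A median. Dusp5, a nuclear phosphatase of ERK, was higher, with 8.07, 11.6 and 14.4 CPM in study B, against 3.55, 8.11 and 11.4 CPM in study A (log2 fold change 0.64 ± 0.14, adjusted p = 0.00532), in 9 of 10 study B libraries.

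**Figure D2:**
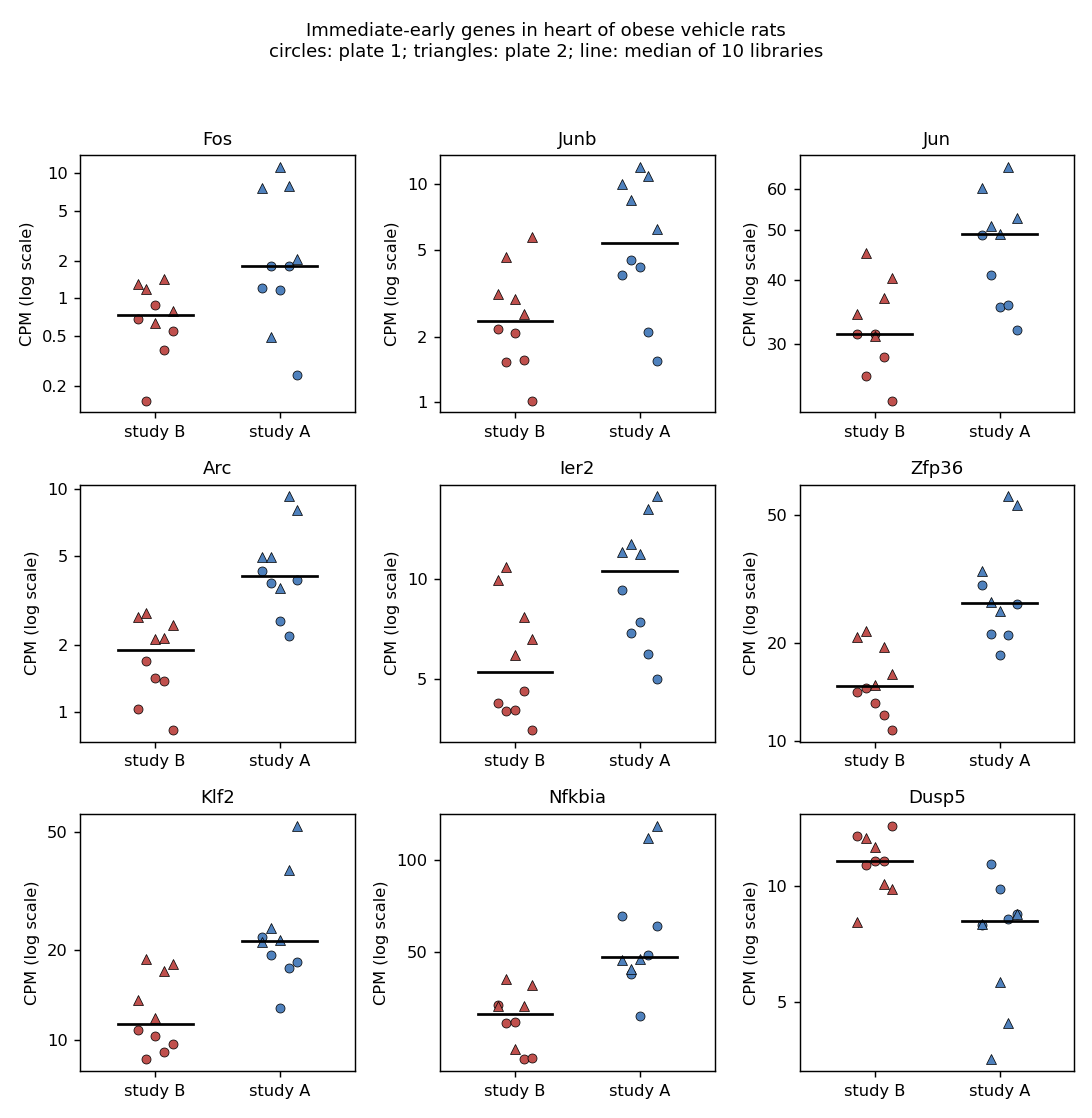
Level of 9 immediate-early genes in each heart library of obese vehicle rats (y axis, CPM on a log scale; x axis, study B left and study A right; circles plate 1, triangles plate 2, lines the median of 10 libraries). The first 8 genes have the lower median in study B and Dusp5 the higher one.

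Some library measures moved with the studies. The summed cytosolic ribosomal protein genes were at 10507 ± 1540.1 CPM in study B and 13067 ± 3075 CPM in study A (mean ± SD, n = 10 each), and 5 study A libraries were high in the skeletal muscle myosin Myh4. With the log2 ribosomal sum as a further term, 7 of the 13 called clock genes kept their call (Bmal1, Nfil3, Per1, Per3, Ciart, Nr1d1 and Dbp), as did 13 of the 20 called immediate-early genes, with Nfkbia among the 7 that lost it. Among all 90 called genes picked by the naming rule given below, 40 kept their call with that term. Without the 5 libraries high in Myh4, 5 clock genes (Bmal1, Nfil3, Per1, Per3 and Dbp) and 12 immediate-early genes kept it. With no plate term, 6 clock genes and 6 immediate-early genes kept it. Each called gene with a value had the same direction in these fits, and both of the first fits were chosen after seeing the data.

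The same genes were read in the other groups of each study, as a description, since treatment and study cannot be told apart there. Of 32 immediate-early genes, 17 (53.1%) had all 3 study B medians (obese vehicle, empagliflozin and its combination with BT2) below all 3 study A medians (lean vehicle, obese vehicle and obese BT2), as did 15.7% of all genes, and 2 (6.25%) had them all above, as did 10.4%. Ier2 had medians of 5.32, 5.66 and 5.38 CPM in those study B groups, against 10.3, 10.6 and 10.6 CPM in the study A groups. Of 33 clock genes 7 (21.2%) had all study B medians below and 3 (9.09%) above, beside those 15.7% and 10.4% of all genes. The obese vehicle groups compared above are part of this order.

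Within study B the medians of clock genes were not alike from group to group. Bmal1 had medians of 33.5, 23.8 and 18.9 CPM in the vehicle, empagliflozin and combination groups of study B, against 18.2, 16.6 and 13.5 CPM in the lean vehicle, obese vehicle and BT2 groups of study A. Dbp had 6.89, 15.6 and 18.1 CPM in those study B groups, against 23.0, 19.0 and 24.8 CPM in the study A groups. The study B vehicle group stood at the end of the order for both genes, and the combination group next to study A.

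**Figure D3:**
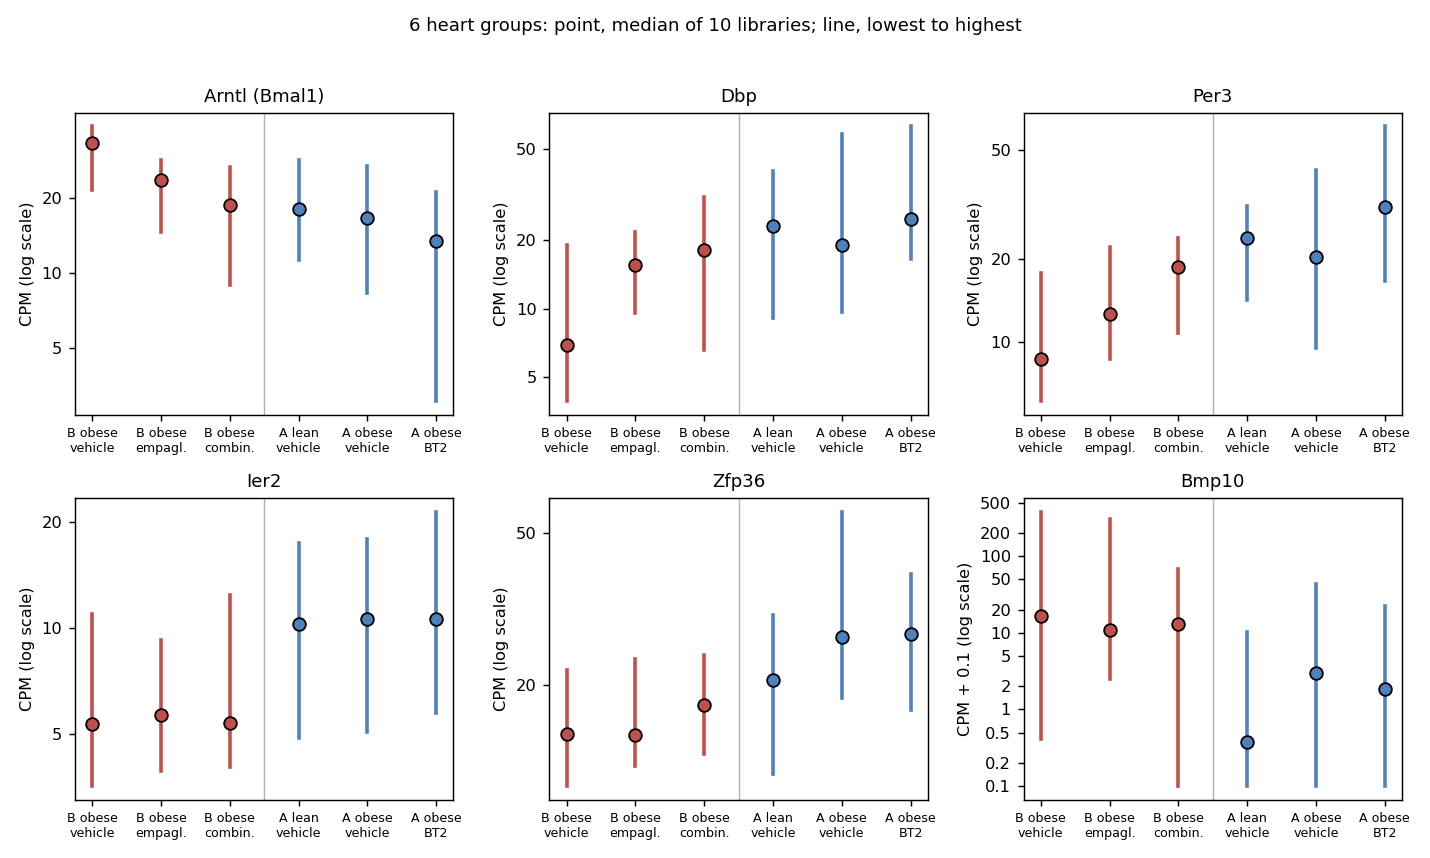
Level of 3 clock genes, 2 immediate-early genes and the atrial gene Bmp10 in the 6 heart groups (y axis, CPM on a log scale, with 0.1 added for Bmp10; points the median of 10 libraries, lines the lowest to the highest; study B left of the grey line, study A right of it). Bmal1 is highest and Dbp and Per3 are lowest in the study B vehicle group, and the Ier2 medians of study B lie below those of study A.

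Kidneys of the same groups gave a further reading, from 10 libraries each with 0.776 to 19.6 M counts in study B and 8 to 21.1 M in study A. The design names both whole kidney and cortex, and which library is which is not given in the sources used here. In kidney 9442 of 14434 genes were called (65.4%, with 33.9% higher and 31.5% lower in study B), so a call there says little about a single gene. Of the 1459 genes called in heart, 1075 (73.7%) were called in kidney, where they are 11.4% of the calls, 252 in the same direction and 823 in the opposite one. The test of the difference between the organs passed in 7697 of 14975 genes (51.4%).

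Per1, Per2, Per3 and Nr1d1 were lower in study B in kidney too (-0.58, -0.28, -1.01 and -0.56 on the log2 scale, adjusted p = 0.00434, 0.0125, 6.76e-06 and 0.0231). Cry1 and Nfil3 were higher there (0.57 and 0.66, adjusted p = 0.00356 and 1.55e-05). For these 6 genes the test between organs was not passed (adjusted p from 0.128 to 0.97). Bmal1 was not called in kidney (0.10 ± 0.13, adjusted p = 0.496), and its difference between the studies was larger in heart by 0.88 ± 0.19, adjusted p = 2.39e-04 (edgeR). Dbp was lower by less in kidney (-0.46 ± 0.19, adjusted p = 0.0434, and 0.0534 without study B replicate 8, the library with the fewest counts), and the organs differed by -0.98 ± 0.32, adjusted p = 0.0098. Nr1d2 was lower by more in kidney (-1.22 ± 0.13, adjusted p = 1.45e-07), and Clock, not called in heart, was lower there (-1.18 ± 0.13, adjusted p = 1.68e-07). Not all genes called in heart kept their direction. Tspan4, lower in heart, was called higher in kidney (0.23, adjusted p = 0.0142, edgeR). Ppp1r3c, higher in heart, was at -0.22 in kidney (adjusted p = 0.501), and Klf15 was at -0.003 (adjusted p = 0.983). In all, 11 of 33 clock genes were called higher and 15 lower in kidney, beside 33.9% and 31.5% of all genes.

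Immediate-early genes went mostly the other way in kidney, where 22 of 36 tested members were called higher in study B and 6 lower (beside 33.9% and 31.5% of all genes), with a median of 0.31 against 0.03 over all genes. Such a reversal was not particular to this set, as 823 of all 1075 genes called in both organs went in opposite directions and 252 in the same one. Junb and Ier2 were higher by 1.14 ± 0.27, adjusted p = 9.00e-04, and 0.86 ± 0.18, adjusted p = 3.64e-04. Klf2, Jun and Fos were higher by 0.51 ± 0.14, 0.49 ± 0.13 and 0.51 ± 0.21 (adjusted p = 0.00248, 0.00333 and 0.0363). The study difference in heart minus that in kidney was -2.25 for Junb, -1.58 for Ier2, -1.39 for Klf2, -0.94 for Jun and -2.39 for Fos (adjusted p = 3.51e-06, 7.65e-07, 9.51e-07, 8.34e-06 and 1.07e-04, edgeR). Arc and Zfp36 were not called in kidney (-0.34 ± 0.18, adjusted p = 0.101, and -0.08 ± 0.12, adjusted p = 0.585), and their organs differed by -0.97 and -0.84 (adjusted p = 0.00175 and 3.93e-04). Nr4a1 was lower in both organs, in kidney by 0.94 ± 0.14, adjusted p = 4.50e-06.

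**Figure D4:**
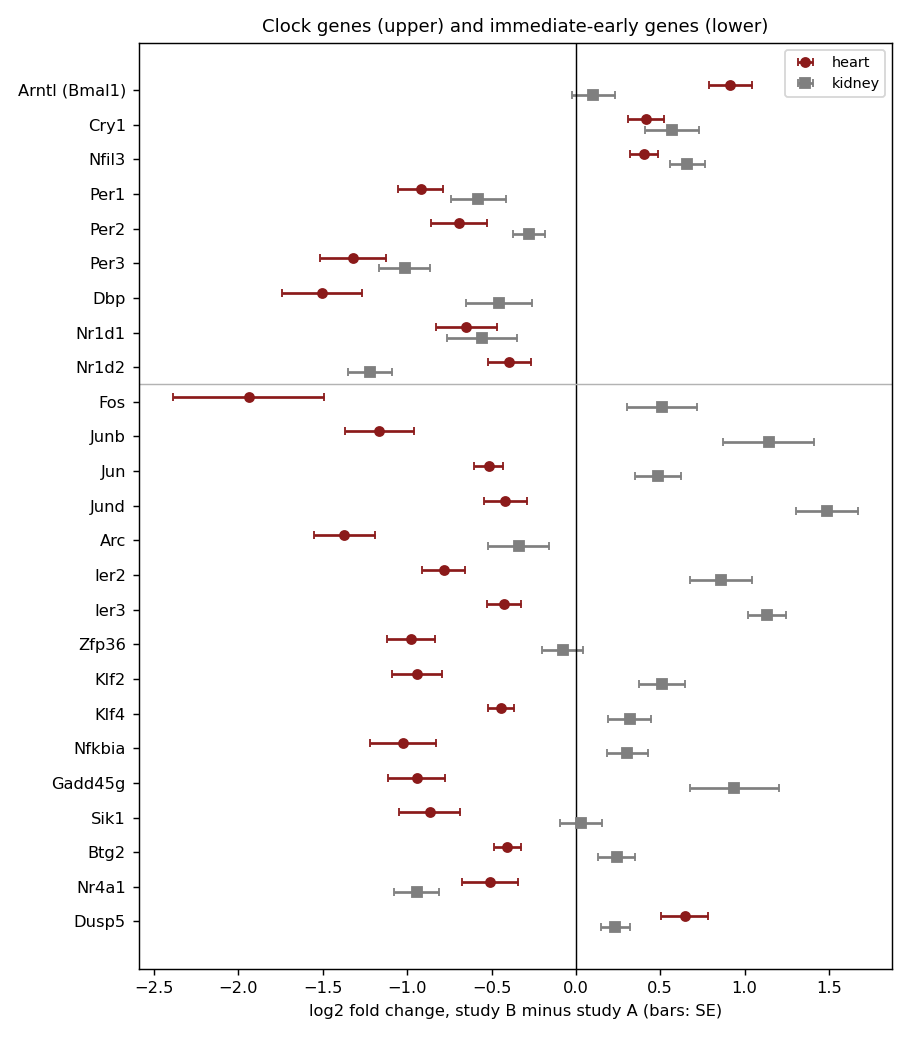
Log2 fold change of study B minus study A (x axis) for 9 clock genes (upper) and 16 immediate-early genes (lower), in heart (red circles) and kidney (grey squares), with bars of 1 SE. The 9 clock genes shown lie on the same side of 0 in both organs, while Fos, Junb, Jun, Jund, Ier2, Ier3, Klf2, Klf4, Nfkbia, Gadd45g and Btg2 lie left of 0 in heart and right of it in kidney. Not shown are Tspan4 and Ppp1r3c, clock genes called in heart whose sign differed between the organs. The sign also differed in clock genes not called in heart, among them Clock, Usp2, Tfrc, Wee1, Fbxl21 and Cry2, which are not shown either.

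The atrial genes Myl7, Myl4, Sln and Bmp10 varied between libraries by orders of magnitude, the others by less, and Bmp10 had the largest fold change of all genes called higher. All 13 listed atrial genes were tested, 3 were called higher and 0 lower (beside 3.44% and 8.29% of all genes), and the median log2 fold change was 0.85. At an unadjusted p under 0.05 there were 6, and DESeq2 called 3. Bmp10 (ENSRNOG00000009316), a growth factor of atrial muscle, had 0.307, 16.3 and 380.4 CPM in study B, against 0, 2.91 and 44.2 CPM in study A (log2 fold change 3.89 ± 0.98, adjusted p = 0.0133, edgeR). Kcnj3, a subunit of the acetylcholine-gated potassium channel, had medians of 27.8 CPM in study B and 21.4 CPM in study A (0.89 ± 0.25, adjusted p = 0.0252). Pam, the amidating enzyme of atrial granules, had medians of 1101 CPM in study B and 832 CPM in study A (0.68 ± 0.17, adjusted p = 0.0129). Bmp10 and Kcnj3 lost their call without study B replicate 5, their highest library. Of the 3 calls 1 (Bmp10) was kept with the ribosomal sum as a term, and 0 without the 5 libraries high in Myh4 or with no plate term.

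Myl7, the atrial myosin light chain and the defining marker of the list, had 9.21, 288 and 2907 CPM in study B, against 8.31, 87.00 and 701 CPM in study A and did not pass the test (1.62 ± 0.81, adjusted p = 0.188). Myl4, Sln and Nppa did not pass it either (1.08 ± 0.82, 1.69 ± 0.68 and 0.97 ± 0.48, adjusted p = 0.395, 0.101 and 0.185). With the ribosomal sum as a term Myl7 and Sln passed it (3.56 and 3.08, adjusted p = 0.0461 and 0.0273). The summed atrial list ran from 1389 to 15221 CPM in study B and from 1285 to 4278 CPM in study A. Across the 10 libraries of study B, Myl7 and Bmp10 had a Pearson's r of 0.91 and a Spearman's rho of 0.90 (permutation p = 2.50e-04 and 7.20e-04, adjusted 0.0015 and 0.00468), with r at 0.89 without the 2 farthest libraries and 0.91 for deviations from the plate means. In study A r was 0.61 and rho 0.57 (permutation p = 0.0645 and 0.0921, adjusted 0.0774 and 0.1004).

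Sbk2, a kinase gene outside the list, was higher with 0.768, 7.498 and 63.4 CPM in study B, against 0.5502, 1.898 and 11.2 CPM in study A (log2 fold change 2.63 ± 0.66, adjusted p = 0.0129). Its highest libraries were study B replicate 7 and study A replicate 2. Without study B replicates 5 and 7, whose Myl7 was over 5 times the median of the 20 libraries, 1 of the 3 atrial calls was kept (Pam), and with the log2 level of Myl7 as a further term 0 were. In the first of these fits 13 of 13 clock calls and 16 of 20 immediate-early calls were kept, and in the second 13 and 19.

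**Figure D5:**
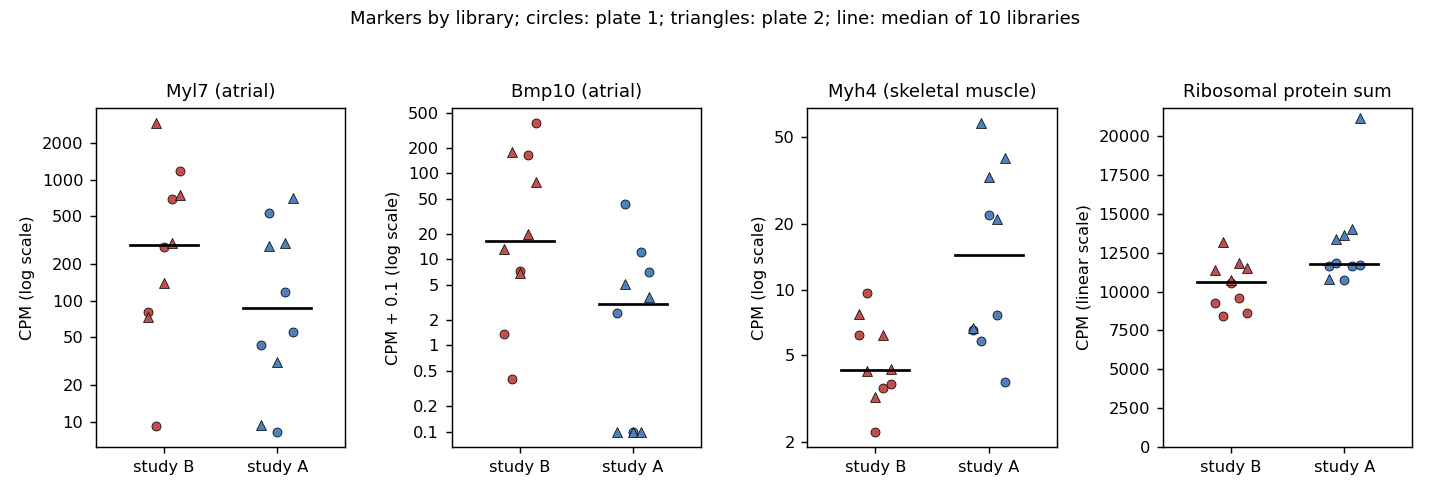
Atrial Myl7 and Bmp10, skeletal muscle Myh4 and the summed ribosomal protein genes in each library (y axes, CPM, on a log scale for the first 3, with 0.1 added for Bmp10, and linear from 0 for the sum; study B left, study A right; circles plate 1, triangles plate 2, lines the median of 10). Myl7 runs from 9.21 to 2907 CPM in study B and from 8.31 to 701 CPM in study A, Myh4 is high in 5 study A libraries, and the highest ribosomal sum is that of study A replicate 10.

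Some markers of other tissues and cell types differed too, beside the 8.29% of all genes called lower. Myh4 had 2.23, 4.28 and 9.67 CPM in study B, against 3.77, 14.4 and 57.98 CPM in study A (log2 fold change -1.88 ± 0.40, adjusted p = 0.00532), and 5 of 6 tested skeletal muscle genes were called lower. Of 4 erythroid genes 3 were lower, among them the globin Hba-a2 with medians of 1206 CPM in study B and 2364 CPM in study A (-1.03 ± 0.20, adjusted p = 0.00274). With the ribosomal sum as a term Hba-a2 did not pass the test (-0.47, adjusted p = 0.178), and Myh4 did (-1.74, adjusted p = 0.0433). Of 9 fibroblast genes 2 were lower, and their summed level had medians of 1250 CPM in study B and 1630 CPM in study A. Of the macrophage, endothelial and smooth muscle genes (12, 9 and 9 tested) edgeR called 0, with 3, 4 and 3 at an unadjusted p under 0.05 and 1, 2 and 0 called by DESeq2. The part of these markers in the results on other genes was not tested beyond the fits given above.

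Cardiac muscle genes moved by small amounts. The ventricular light chain Myl3 had 1888, 2876 and 3584 CPM in study B, against 2761, 3877 and 5596 CPM in study A (log2 fold change -0.48 ± 0.08, adjusted p = 9.43e-04), and Tnni3, cardiac troponin I, was lower by 0.41 on the log2 scale (adjusted p = 0.00274). These were the 2 genes called of 9 ventricular markers, beside 8.29% of all genes called lower. With the ribosomal sum as a term Myl3 passed the test and Tnni3 did not (adjusted p = 0.0149 and 0.105, edgeR). Of 11 cardiac stress genes edgeR called 0 (4 at an unadjusted p under 0.05, and DESeq2 called 2), with Nppb at -0.34 ± 0.17, adjusted p = 0.186 and Myh7 at -0.27 ± 0.09, adjusted p = 0.0557. Ribosomal protein genes were lower in 36 of 81 (median -0.31) and subunits of respiratory complex I in 15 of 36 (median -0.25), with none called higher in either set, beside 8.29% and 3.44% of all genes.

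Glucocorticoid-responsive genes were lower in 8 of 14 (median -0.52, beside 8.29% of all genes called lower), with none called higher, and Per1 is counted here as well as in the clock list. Cebpb, a factor of the acute-phase response, had 1.27, 2.36 and 4.44 CPM in study B, against 2.64, 4.26 and 10.2 CPM in study A (log2 fold change -0.88 ± 0.17, adjusted p = 0.00274). Ddit4, an inhibitor of mTOR complex 1, and Map3k6 were lower by 0.72 and 1.09 on the log2 scale (adjusted p = 0.00784 and 0.00282). With the ribosomal sum as a term 2 of the 14 were called. Fkbp5, a gene often used to read this response, was not called (0.03 ± 0.11, adjusted p = 0.884).

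Heat shock genes split. The chaperone Hsp90ab1 was higher, with 794, 869 and 1035 CPM in study B, against 660.3, 756 and 838 CPM in study A (log2 fold change 0.25 ± 0.05, adjusted p = 0.00333), each study B library above the study A median. Hsph1 and Hspa8 were higher as well (0.36 ± 0.09 and 0.43 ± 0.14, adjusted p = 0.0127 and 0.0449). Hspb1, the small heat shock protein of muscle, was lower (-0.49 ± 0.12, adjusted p = 0.0131), and 8 of the 12 genes were not called (beside 3.44% of all genes higher and 8.29% lower). With the ribosomal sum as a term Hsp90ab1 passed the test (adjusted p = 0.029, edgeR), and Hsph1, Hspa8 and Hspb1 did not (adjusted p = 0.234, 0.497 and 0.425). Interferon genes were lower in 5 of 18 (beside 8.29% of all genes), among them the immunoproteasome subunit Psmb9 with 5.05, 8.64 and 15.02 CPM in study B, against 9.27, 14.1 and 33.7 CPM in study A (log2 fold change -0.80 ± 0.13, adjusted p = 0.00111) and the chemokine Cxcl10 (-0.83 ± 0.21, adjusted p = 0.0151). Psmb9 passed the test with the ribosomal sum as a term (adjusted p = 0.0273), and Cxcl10 did not (adjusted p = 0.168). Of 14 cell cycle, 11 unfolded protein response and 8 glucose response genes edgeR called 0, with 1, 3 and 2 at an unadjusted p under 0.05 and 0, 1 and 0 called by DESeq2.

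Mcc and Lifr were among the 10 lowest called genes by fold change of those with a symbol and a mean of at least 5 CPM in either study. Mcc, a suppressor gene of colorectal cancer, had 0.859, 3.18 and 4.91 CPM in study B, against 0.5605, 10.9 and 13.8 CPM in study A (log2 fold change -1.72 ± 0.32, adjusted p = 0.00196). Lifr, a receptor subunit of leukaemia inhibitory factor, had medians of 2.81 CPM in study B and 8.22 CPM in study A (-1.31 ± 0.23, adjusted p = 0.0013). In both, study A replicate 10 lay under every study B library, and it is the library with the highest ribosomal sum. With that sum as a term the fold changes were -2.76 for Mcc and -1.86 for Lifr, and in kidney they were -1.24 ± 0.15 and -2.28 ± 0.33.

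In 8 genes (0.0643% of those tested) the libraries of the studies did not overlap, and they were singled out after their values were seen. Bbx, Creb5, Cdk6, Resf1, Mysm1 and the unnamed ENSRNOG00000068835 were lower in study B, and Auts2l1 and Cpa3 higher. In kidney, where the libraries did not overlap in 7.2% of genes, the 7 of them that were tested all overlapped. Bbx (ENSRNOG00000001971), an HMG-box gene, had 0, 0.302 and 0.888 CPM in study B, against 1.16, 1.86 and 2.79 CPM in study A (log2 fold change -2.60 ± 0.34, adjusted p = 5.54e-04, edgeR, -2.45 on plate 1 and -2.72 on plate 2). Bbx was lower in kidney as well (-2.09 ± 0.33, adjusted p = 1.27e-05), with medians of 1.56 CPM in study B and 7.13 CPM in study A, and the test between organs was not passed (-0.46 ± 0.51, adjusted p = 0.463). In the 6 heart groups its medians were 0.304, 0.165 and 0.639 CPM in the vehicle, empagliflozin and combination groups of study B, against 1.27, 1.86 and 1.64 CPM in the lean vehicle, obese vehicle and BT2 groups of study A.

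Creb5, a bZIP factor related to ATF2, had 0.198, 0.604 and 0.768 CPM in study B, against 0.901, 1.69 and 2.23 CPM in study A (log2 fold change -1.59 ± 0.23, adjusted p = 6.50e-04), and was lower in kidney too (-0.91 ± 0.33, adjusted p = 0.0201). Cdk6, a kinase of the G1 phase, had 0.574, 0.953 and 1.37 CPM in study B, against 1.502, 2.08 and 2.96 CPM in study A (log2 fold change -1.15 ± 0.16, adjusted p = 6.50e-04), with -0.52 ± 0.19, adjusted p = 0.0198 in kidney. Resf1, which silences retroelements, and Mysm1, a histone H2A deubiquitinase, were lower by 0.58 and 0.52 in heart and by 0.62 and 0.69 in kidney on the log2 scale. Auts2l1 had 12.4, 14.98 and 17.2 CPM in study B, against 7.54, 9.699 and 12.2 CPM in study A (log2 fold change 0.59 ± 0.08, adjusted p = 5.54e-04), and was higher in kidney by 0.80 ± 0.25, adjusted p = 0.0073. Over the 6 heart groups its medians did not separate the studies, with 12.96 CPM in study A lean vehicle. In study B they were 12.92 CPM with empagliflozin and 11.3 CPM with the combination. Those of ENSRNOG00000068835 did not separate them either (6.33 CPM in study A lean vehicle, 6.62 CPM in the study B combination group). Cpa3, the carboxypeptidase of mast cells, had 0.969, 1.31 and 2.87 CPM in study B, against 0, 0.453 and 0.734 CPM in study A (log2 fold change 1.73 ± 0.28, adjusted p = 9.43e-04) and was too low to test in kidney alone.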

How the data were processed

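The authors sequenced poly-A RNA from frozen tissue as stranded paired-end libraries, per the labels' protocols, and Salmon 1.5.2, STAR 2.7.3a and the build mRatBN7.2 are listed in the submitters' processing notes, without parameters. The deposited tables of the authors hold expected counts per gene for each run, of which 6.27% were not whole, and the 2 runs of a repeated library were summed and rounded (3 libraries of study B and 4 of study A). Scaled counts, a signal, in the authors' deposited comparison tables served to check how runs were joined. Count columns that match no sample given here (82) were not used. Genes passing filterByExpr were tested with edgeR 4.0.16 in R 4.3.3 (TMM scaling, quasi-likelihood test, plate as covariate), with Benjamini-Hochberg adjustment over all genes tested, and called at an adjusted p under 0.05. Kidney libraries were tested in the same way, and the difference between organs in one fit of 40 libraries. CPM are per 1000000 counts after TMM scaling. The test was tested on simulated data. Alternatives were DESeq2 1.42.0, other scaling and filters, each plate alone, no plate term, further terms, and fits without single or doubtful libraries. Relations between 2 genes used 100000 permutations of log2(CPM + 0.5). Members and lists were chosen with earlier results of these data known. Genes named are the 10 highest and 10 lowest called by fold change with a symbol and a mean of at least 5 CPM in either study, the members of the clock, immediate-early and atrial lists, up to 4 called members of each other list by smallest adjusted p, and a few cardiac genes. Of 434 listed genes 415 were found by symbol, and 19 were not analysed here. Total counts of 7.33 to 21.8 M (M being 1000000) limit the precision of genes under 1 CPM.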

Additional observations from a re-analysis of the deposited data

Results flagged for a closer look

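Of 116 groups of 10 libraries tested (53 genes and 5 library measures, each in both studies), 22 had 1 library far from the others by Dixon's test. Chance gives this in about 1 in 20 independent groups of normally spread values. These were untransformed values, every flag but that of Mcc was at the high end, and several came from the same library. The count of 22 is therefore not measured against that rate. In study B, replicate 7 stood apart as the highest library for Myl7 (2907 CPM), Myl4 (1278 CPM), Sln (293 CPM), Nppa (8543 CPM), the atrial sum (15221 CPM), Klf4 (37.4 CPM) and Sik1 (4.76 CPM). Replicate 5 was the highest for Bmp10 (380.4 CPM) and Kcnj3 (93.3 CPM). The others in study B were replicate 9 for Per3 (17.7 CPM), replicate 10 for Bbx (0.888 CPM), replicate 1 for Cpa3 (2.87 CPM) and replicate 8 for total counts (21.8 M). In study A, replicate 10 stood apart as the highest library for the ribosomal sum (21180 CPM), the erythroid sum (16963 CPM), Hba-a2 (7466 CPM) and Psmb9 (33.7 CPM), and as the lowest for Mcc (0.560 CPM). Replicate 2 was the highest for Bmp10 (44.2 CPM) and Sbk2 (11.2 CPM), replicate 9 for Per1 (60.3 CPM) and replicate 8 for Ciart (5.27 CPM).

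The difference between the studies was not the same in heart and kidney by a test of the organ difference itself (edgeR, 51.4% of genes). As heart minus kidney on the log2 scale, it was 0.88 for Bmal1, 0.89 for Nr1d2 and 2.33 for Cpa3. It was -0.98 for Dbp, -2.39 for Fos, -2.25 for Junb, -0.94 for Jun, -1.58 for Ier2, -1.39 for Klf2, -0.84 for Zfp36 and -0.97 for Arc.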

How the results depend on the processing

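The count of 1459 genes called in heart was 95 with no plate term, 916 on plate 1 alone and 0 on plate 2 alone (1479 at an unadjusted p under 0.05), and leaving out 1 library gave 906 to 2644. It moved by over 1.5 times without study A replicate 1 (956) or 6 (2644) and without study B replicate 5 (954) or 8 (906). Of 2 alternatives chosen after seeing the data, the ribosomal sum as a term gave 770 (304 shared with the 1459), and leaving out the 5 libraries high in Myh4 gave 211 (174 shared). The cause of these moves was not tested, beyond the fewer libraries of a fit that leaves some out. The share called lower, 70.7%, was 54.7% with DESeq2 (1935 genes), 56.7% with its size factors (1489), 57.3% on plate 1, 59.3% without the libraries high in Myl7 (1480), 86.3% with no plate term, 83.8% with the ribosomal sum and 88.6% without the libraries high in Myh4. Counts with no low-count filter, 1 fit of all 6 groups, the original run alone, a term for repeat runs, Myl7 as a term or without mitochondrial genes ran from 984 to 1972, and those of kidney (9442) and of the organ difference (7697) from 8924 to 9995 and 6723 to 7240. Of values of single genes under an alternative, 4080 stayed on their side of the threshold (uncalled ones could change sign), 680 lost the call, 25 gained it and 4 turned round: Usp2 to -0.20 and Tfrc to -0.22 with the ribosomal sum, Atf3 to 0.25 on plate 1 and Myl4 to -0.44 with Myl7 as a term. Replicate numbers share only a number (correlation of same-numbered libraries from group and plate means -0.456 to 0.305, with 1 of 10 best with its own), and with the number as a replicate block 1281 genes were called in heart, 8924 in kidney and 7240 between organs.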

Other observations

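Collagen and matrix genes were lower in 4 of 18 tested and higher in none (beside 8.29% and 3.44% of all genes), with a median log2 fold change of -0.33. Postn, a matrix protein of activated fibroblasts, had 4.63, 7.39 and 16.2 CPM in study B, against 9.65, 13.2 and 28.5 CPM in study A (log2 fold change -0.74 ± 0.21, adjusted p = 0.0276, edgeR). Col1a1, Spp1 and Thbs1 were lower by 0.50, 1.00 and 0.60 on the log2 scale (adjusted p = 0.0388, 0.0497 and 0.0141). Spp1 was highest in study A replicate 10, at 53.2 CPM, and without that library was at -0.51 (adjusted p = 0.0588). With the ribosomal sum as a term, Postn, Col1a1 and Spp1 did not pass the test (-0.29, -0.20 and -0.18, adjusted p = 0.509, 0.542 and 0.795), and Thbs1 did (-0.71, adjusted p = 0.0251).

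Among genes of fuel use, 3 of 17 PPAR targets were lower (beside 8.29% of all genes), namely Decr1, Ech1 and Plin5 (-0.25 ± 0.07, -0.22 ± 0.07 and -0.34 ± 0.09, adjusted p = 0.0308, 0.0451 and 0.0168). Decr1 and Ech1 serve the breakdown of unsaturated fatty acids, and Plin5 coats lipid droplets. Pdk4, the kinase that turns down pyruvate oxidation, had medians of 496 CPM in study B and 465 CPM in study A (0.04 ± 0.17, adjusted p = 0.912). Of 21 genes of branched-chain amino acid breakdown, 2 were lower (beside 8.29% of all genes), Bckdha, a subunit of the branched-chain ketoacid dehydrogenase, and Pccb, a subunit of propionyl-CoA carboxylase (-0.32 ± 0.08 and -0.15 ± 0.05, adjusted p = 0.0146 and 0.0423). Ppm1k, the phosphatase that activates that dehydrogenase, had medians of 11.6 CPM in study B and 12.4 CPM in study A (-0.03 ± 0.27, adjusted p = 0.953), and passed the test with the ribosomal sum as a term (-0.96, adjusted p = 0.000878). Insig1 and Me1, of sterol sensing and NADPH supply, were higher (0.33 ± 0.08 and 0.28 ± 0.09, adjusted p = 0.00847 and 0.0471), the 2 called of 15 genes of lipid synthesis, beside 3.44% of all genes called higher. With the ribosomal sum as a term Insig1, Me1, Decr1, Ech1 and Pccb did not pass the test (adjusted p = 0.264, 0.8, 0.32, 0.284 and 0.15, edgeR). Plin5 and Bckdha passed it (adjusted p = 0.0026 and 0.0339).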
